A study of Nicrophorus vespilloides with 24 samples.

Results

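Of the 11403 loci counted in heads of the burying beetle Nicrophorus vespilloides, 50 were set apart. The group means of their RNA were higher in females than in males under every social condition and behavioural state, and close to the control level in caring beetles. They were chosen on N, the log2 of the count divided by the library's median-of-ratios size factor, plus 1. Loci with a mean scaled count of at least 20 were kept, 8491 in all, and 2380 of these moved by less than 0.3 in N, in either direction, in each of the 4 comparisons of caring with control beetles of the same sex and parenting type. F is the female minus male difference in group mean N, and the 50 loci are those whose smallest F over the 6 combinations of parenting type and stage was highest. The sex differences and the caring changes are therefore given as a description, with no test.

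Each of the 24 libraries was made from 10 pooled heads of beetles 21 days after eclosion, all from a stock that originated in Devichoys Wood, Cornwall, and 2 libraries represent each of 12 groups. The groups are females and males of the uniparental and biparental treatments, each as Control (mated, given no carcass), Parenting (here caring, taken on the carcass near larvae) and Post-parenting (here post-caring, taken after desertion), and the 2 parenting types had separate controls. After removal each beetle was kept alone, and its head was harvested a day later. Post-caring beetles were paired at a younger age and had a longer treatment than the others, so that ages matched at harvest. The social condition was imposed, in that a mate was taken away to make a beetle uniparental, and biparental males were taken if seen near the young, so that care was possible but was not required of them. The labels name the tissue as brain, while the methods describe whole heads with fat body and connective tissue, so that fewer cells of a type and less RNA per cell cannot be told apart in any value below. The 2 libraries of a group came from separate pools, and the p-values measure the spread between pools.

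Burying beetles breed on small carcasses, and either parent, or both, feed begging larvae with regurgitated food. In insects, somatic sex is set in each cell by a splicing cascade that ends in sex-specific forms of the transcription factors doublesex and, in the nervous system of flies, fruitless, and sex-biased RNA in a head can come from neurons, fat body, muscle, glands or sense organs. Fat body is the insect organ of storage and of yolk protein synthesis, and vitellogenin, the yolk precursor, is made there mainly by females.

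Library totals ranged from 16131079 to 23906173 expected counts in the 12 uniparental libraries and from 14647691 to 18156673 in the 12 biparental libraries, and no label gives a batch. The 14 loci with a fat body or yolk description summed to between 5.57% and 39.6% of a female library's scaled counts, with a median of 17.8%, and to between 0.0530% and 0.836% of a male library's, with a median of 0.197%. A mean F above 0 was found at 12 of the 14. The female sums of scaled counts went with the stage, lowest in caring and highest in control beetles of each parenting type. For 37 muscle loci the sums were 3.12% to 6.34% in females and 8.45% to 15.2% in males, without overlap. The sums for 20 antennal chemosensory loci were 0.417% to 1.61% in females and 0.341% to 1.05% in males, and for 5 loci related to juvenile hormone 0.00370% to 0.0154% in females and 0.00418% to 0.0124% in males. Of these lists, which come from descriptions of loci that the study chose on these samples, no list had a locus at 0 in all libraries, and none of the 50 loci is on any of them, as that table holds no locus steady through caring. Their part in the sex differences was not tested. Markers that define brain tissue are not among the descriptions used here.

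The sex differences of the 50 loci were repeated, as the rule required, and most were small. Repeated differences alone did not separate them from the rest. A smallest F at or above that of the last of the 50 was found at 253 loci. Of these, 203 were left out because they were not steady through caring. The smallest F of the 50 loci lay between 0.27 and 1.13 with a median of 0.33. The mean of their 6 F values had a median of 0.53. In scaled counts the female mean was 1.27 to 2.34 times the male mean, with a median of 1.44, and 36 of the 50 ratios were under 1.5 while only 1 reached 2. The smallest F was at least 0.5 at 6 loci and under 0.4 at 35. The last locus inside was Locus_71697, with a smallest F of 0.2681, and the first outside was Locus_C897244, with 0.2675, so the edge of the group falls within a continuous range.

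**Figure D1:**
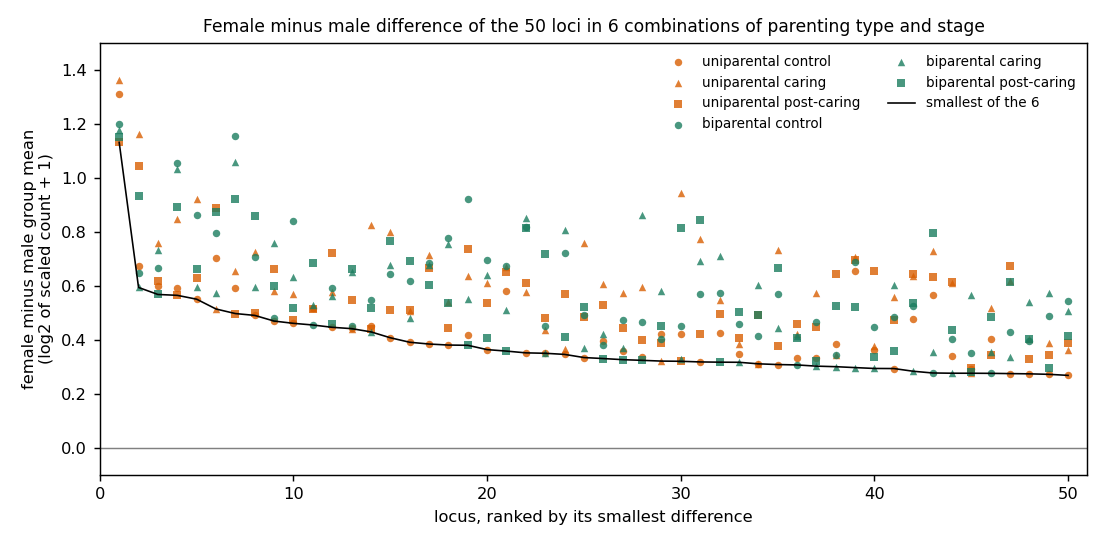
Female minus male difference in group mean N (vertical axis, log2 of scaled count + 1) of each of the 50 loci, ranked by the smallest of their 6 values (horizontal axis); colours mark the parenting type, symbols the stage, and the line joins the smallest values. Locus_C909520 stands alone at 1.13 or more, and the line runs from 0.59 at the second locus to 0.27 at the last.

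Locus_C909520 had the widest sex difference of the 50. Its scaled count was 85.0 at the lowest, 164 at the median and 256 at the highest of the 12 female libraries, against 36.8, 63.1 and 139 in the 12 male libraries. The female mean of 168 ± 54.1 was 2.34 times the male mean of 71.9 ± 27.0 (SD over 12 libraries each, stages and parenting types included). Its 6 F values lay between 1.13 in uniparental post-caring and 1.36 in uniparental caring beetles. In 9 of the 12 female libraries it was above every male library, and in 9 of the 12 male libraries it was below every female library. The overlap involved 3 female libraries at 85.0, 103 and 115. It also involved male post-caring libraries, at 86.4 and 97.8 in uniparental and 139 in biparental males. It was also the noisiest of the 50, with a within-group SD of N of 0.47. The protein it matches best by blast is described, through another locus with the same match, as a hypothetical protein of the flour beetle Tribolium castaneum, so no function is given to it here.

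Locus_20299 and Locus_13903 followed, and their levels differed as much between parenting types as between the sexes. Locus_20299 lay between 64.2 and 88.3 scaled counts in the 6 uniparental female libraries, against 29.9 to 46.8 in the 6 uniparental male libraries. In biparental beetles it lay between 106 and 172 in females and between 60.4 and 107 in males. The sexes therefore overlapped over all 24 libraries, and within the biparental libraries only at the margin, while the uniparental sexes were apart. Locus_13903 ran the other way, with 460 to 660 in uniparental females against 312 to 394 in uniparental males, and 292 to 400 in biparental females against 194 to 275 in biparental males. Within each parenting type its 6 female libraries were above its 6 male libraries. The smallest F was 0.59 at Locus_20299 and 0.57 at Locus_13903.

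Locus_28947, Locus_C904218 and Locus_C910420 completed the 6 highest. Locus_28947 had a lowest, median and highest scaled count of 194, 264 and 348 in female libraries, against 105, 153 and 178 in male libraries. Locus_C910420 had 338, 383 and 530 in female libraries, against 186, 234 and 273 in male libraries. At both, all 12 female libraries were above all 12 male libraries. Locus_C904218 had 192, 291 and 369 in female libraries, against 127, 173 and 255 in male libraries, and 9 of its female libraries were above every male library. None of the 3 has a description in the sources used here.

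**Figure D2:**
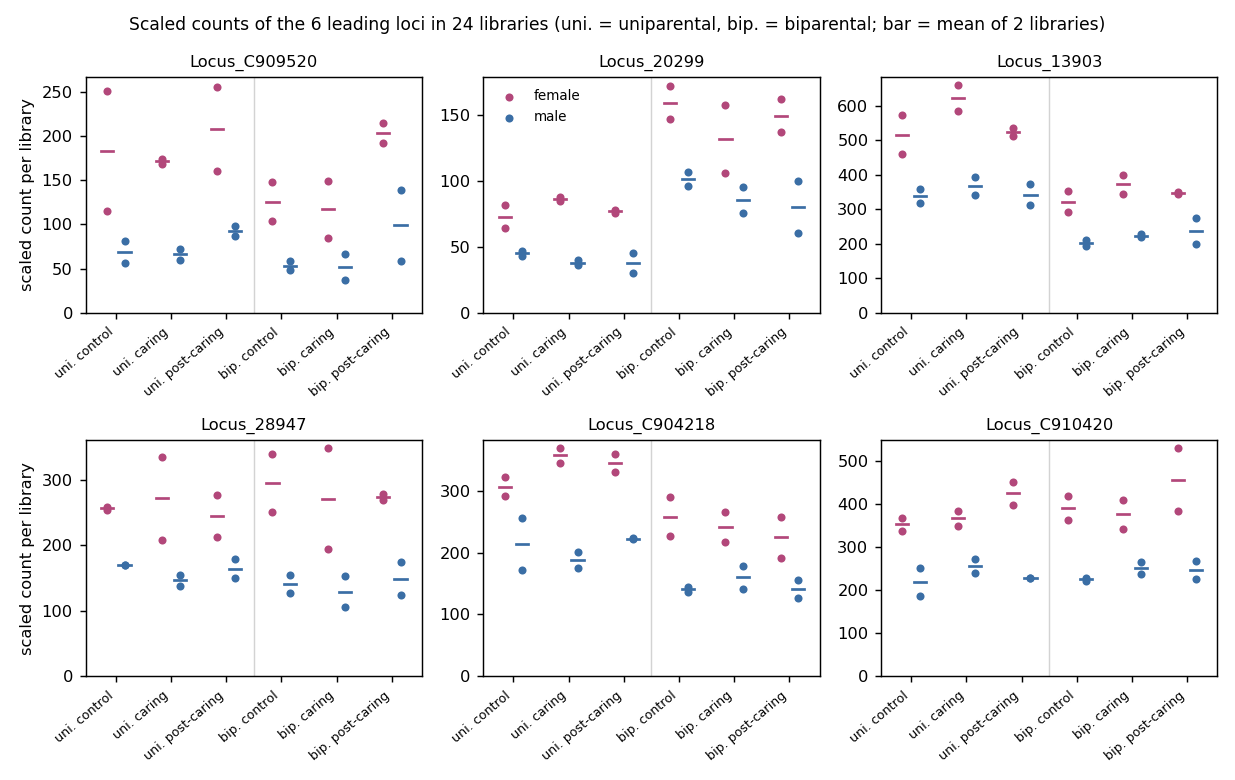
Scaled count (vertical axis, linear from 0) of the 6 loci with the highest smallest F in each of the 24 libraries, by parenting type and stage, with females left of males; points are libraries and bars the means of 2. In each combination the female bar is above the male bar, and Locus_20299 is lower, and Locus_13903 higher, in uniparental than in biparental beetles of both sexes.

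The lowest male shares of the female level after Locus_C909520, at 42.8%, were found at Locus_6792, at 54.6%, and Locus_28947, at 55.8%. Locus_6792 also had the widest range of F, from 0.50 in uniparental post-caring to 1.16 in biparental control beetles. Its level in males was nearly flat, between 59.2 and 77.7 scaled counts, whereas females ranged from 86.1 to 188. The highest female values came from biparental libraries, where replicates were far apart, at 167 and 108 in caring, 188 and 115 in control and 183 and 101 in post-caring females. The narrowest range of F, from 0.31 to 0.46, was at Locus_4293, which had 1064, 1464 and 2044 scaled counts at the lowest, median and highest of the female libraries, against 787, 1146 and 1856 in the male libraries.

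The mean scaled count of the 50 loci ran from 53.5 to 5045. Of the 8491 loci, 380 were more abundant than the highest of the 50 and 958 less abundant than the lowest. The median over the 50 was 434, against 335 over the 8491 loci and 509 over the 2380 steady loci. Locus_C860444 was the most abundant, at 4347, 5664 and 7534 scaled counts (lowest, median and highest) in females, against 2937, 4206 and 5312 in males. Locus_C915164 was the least abundant, at 26.0, 63.4 and 94.9 in females, against 19.1, 41.7 and 84.6 in males. Both sexes overlapped at both loci, and at Locus_C915164 only 3 female libraries were above every male library. Levels are compared here between sexes and not between loci, since locus lengths were not used.

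Over all 24 libraries, females and males did not overlap at 9 of the 50 loci, against a background of 0.436% of the 8491 loci. Because the loci were chosen for this difference the count is a description. The 9 include Locus_28947, Locus_C910420, Locus_6792 and Locus_71697, and the last of these had 2157 to 2790 scaled counts in females against 1755 to 2147 in males, with the lowest within-group SD of N of the 50, at 0.04. Without overlap within uniparental libraries (6 against 6) were 36 loci (background 3.43%), within biparental libraries 36 (background 3.36%), and within both types 29 (background 1.01%). Both female libraries were above both male libraries in all 6 combinations at 40 loci (background 2.72%) and in 288 of 300 cases in all. In uniparental control, caring and post-caring beetles this held at 43, 50 and 50 loci (background 19.9%, 33.2% and 31.4%), and in the same stages of biparental beetles at 49, 48 and 48 (background 26.2%, 26.3% and 22.9%). Locus_13786 and Locus_C903532 were the 2 loci with the fewest separated combinations, 4 each. The mean F was 1.38 to 9.71 times the within-group SD of N, with a median of 2.91.

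The mean of N over the 50 loci was between 8.99 and 9.27 in female libraries and between 8.38 and 8.71 in male libraries, which leaves a gap of 0.28. In males the 6 uniparental libraries, at 8.52 or more, were above the 6 biparental ones, at 8.495 or less, while in females uniparental libraries ran from 9.004 to 9.27 and biparental ones from 8.99 to 9.05. The median F of the 50 loci was 0.39, 0.58 and 0.51 in uniparental control, caring and post-caring beetles, and 0.53, 0.56 and 0.52 in the same stages of biparental beetles. Over the 8491 loci the corresponding medians lay between −0.03 and 0.02. Uniparental controls had the lowest median and held the smallest F of 21 of the 50 loci, followed by biparental caring beetles with 9. As a share of all counts in a library the 50 loci took 0.210% to 0.493% in females and 0.175% to 0.273% in males, which overlap.

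**Figure D3:**
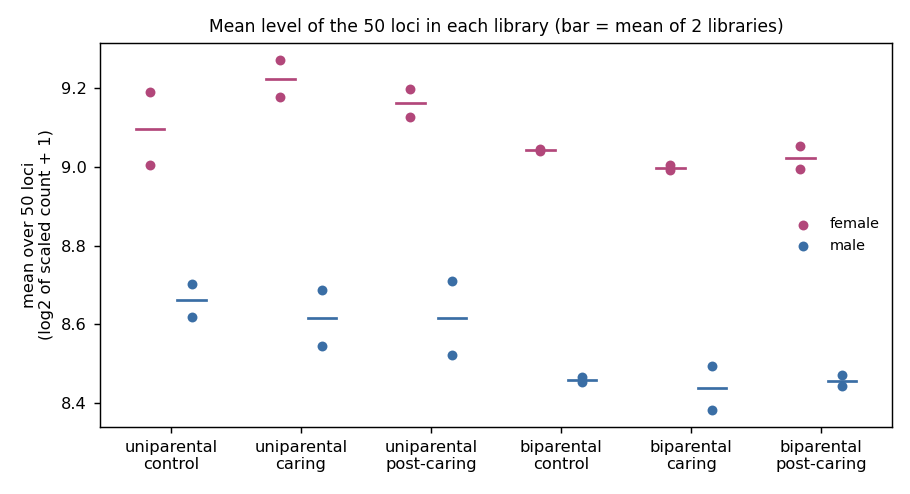
Mean of N over the 50 loci (vertical axis, log2 of scaled count + 1, which does not start at 0) in each library, by parenting type and stage (horizontal axis), with females left of males; points are libraries and bars means of 2. Every female library lies at 8.99 or above and every male library at 8.71 or below.

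The loci were selected for small caring changes, so their size here is bounded by that choice. The limit of 0.3 applied to means of 2 libraries. At some loci the within-group SD of N was larger, as at Locus_C909520 (0.47) and Locus_C819820 (0.42), and their steadiness is uncertain. In uniparental females 42 of the 50 were higher in caring than in control beetles, with a median change in N of 0.15, against 50.9% and a median of 0.00 over the 2380 steady loci. In uniparental males 17 were higher, with a median of −0.05, against 56.8% and 0.03 over the steady loci. In biparental females 18 were higher, with a median of −0.06, against 45.0% and −0.02, and in biparental males 20, with a median of −0.03, against 51.3% and 0.00. The control libraries of uniparental females enter both this change and the lowest of the 6 median F values, and a locus with low uniparental female controls moves both. The steadiness is relative to the size factors. When libraries were scaled to their totals instead, the median caring change over the 8491 loci was 0.67 in uniparental and 0.56 in biparental females, 0.12 in uniparental and 0.09 in biparental males, and none of the 50 stayed within the limit. All 300 of their F values, for which they were chosen, remained above 0, the lowest at 0.09. On that scale the median F over the 8491 loci was itself −0.16 in biparental control and 0.42 in uniparental caring beetles, so the sign count is a description.

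Deviations from the group mean were shared to a small degree. Over the 12 female libraries the median correlation between pairs of the 50 loci was 0.20, and over the 12 male libraries 0.21, against 0.00 for pairs of steady loci in both sexes. For the 50 male-biased loci that the mirror of the rule gives, the medians were 0.15 and 0.24. These correlations share libraries and depth and are a description.

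The rule was also repeated on part of the libraries, and the loci it then chose were read in the rest. Most of these loci are not among the 50 described here, so the readings describe the rule rather than the 50. The size factors were computed from all 24 libraries. The rule was applied to the libraries numbered 1 alone and the chosen loci were read in those numbered 2, and the reverse. The numbers are those of the sample titles. In the male controls of both parenting types, 4 libraries, the deposited files carry the opposite numbers, and it is not known which are right. The 50 loci chosen on replicate 1, of which 18 are among the 50 described here, had a median smallest F of 0.36 there and of 0.14 in replicate 2. All 50 had a mean F above 0 in replicate 2, and 40 had all 6 F values above 0, against 9.72% of the 8491 loci. The 50 loci chosen on replicate 2, of which 16 are among those described here, had a median smallest F of 0.20 there and of 0.17 in replicate 1, where 50 had a mean F above 0 and 35 had all 6 above 0, against 14.8% of the 8491 loci. With the numbers of the files, the loci chosen on replicate 1, 14 of them among those described here, had a median smallest F of 0.39 there and of −0.05 in replicate 2, where 50 had a mean F above 0 but only 21 had all 6 above 0, against 8.13% of the 8491 loci. Those chosen on replicate 2, 12 of them among those described here, had a median smallest F of 0.18 there and of 0.09 in replicate 1, where 50 had a mean F above 0 and 31 had all 6 above 0, against 16.2%. The count with all 6 F values above 0 therefore depends on the numbering. The count with a mean F above 0 was 50 in each of the 4 readings, which reuse the same 24 libraries and are not independent. Over all 24 libraries 52.2% of the 8491 loci had a mean F above 0, and no such share was taken by replicate. With a single library left out of the choice, between 24 and 48 of the 50 loci were picked again. The lowest number, 24, came without either of the uniparental female control libraries, and 33 were picked without biparental female caring replicate 1.

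The mirror of the rule gives the 50 male-biased loci steady through caring, and the size of the difference was similar there. The highest, 50th and median smallest difference were 1.13, 0.27 and 0.33 at the female-biased loci (female minus male), against 1.07, 0.24 and 0.28 at the male-biased loci (male minus female). Among the 2380 steady loci, F was above 0 in all 6 combinations at 465 and below 0 in all 6 at 428. Of the 253 loci whose smallest F reached that of Locus_71697, 203 were not steady through caring. A smallest F over 2 was found at 12 loci, none of them steady.

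The sources used here describe few of the 50 loci. None is among the 866 loci of the table used for gene names, which lists loci that the study chose for a change with caring and holds none of the 2380 steady loci, so that the rule fixed this absence. For 3 the best blast match is described there through another locus. Besides Locus_C909520 these are Locus_18811, matched to a Tribolium castaneum protein described as similar to AGAP007029-PA, and Locus_7940, a hypothetical protein of Tribolium castaneum. Locus_18811 was among the most abundant of the 50, with 2634, 3843 and 4734 scaled counts (lowest, median and highest) in females, against 1930, 2428 and 3148 in males, and Locus_7940 had 352, 485 and 746 in females, against 265, 348 and 522 in males. Of the 50 loci, 26 (52%) consist of a single contig, against 59.75% of the steady loci and 68.4% of the 8491. The largest number of contigs is 5.

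A locus of an assembly without a genome can be a fragment, and fragments of a gene would share its best match. For 9 of the 50 loci, 14 further loci carry the same match, and 9 of these pass the minimum of 20 scaled counts. Of the 9, 6 had a mean F above 0, against 52.2% of the 8491 loci, and 2 had all 6 F values above 0, against 17.6%. Locus_50012, which shares its match with Locus_18811, had F between 0.21 and 0.74, and Locus_C881000, which shares its match with Locus_C819820, had F between 0.21 and 0.74. Locus_C907438, which shares its match with Locus_C909520, had a mean scaled count of only 3.95 and F between −1.33 and 2.53. Reads of such loci may have been divided between them, and values of members with a shared match are uncertain to that extent.

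After care ended, none of the 50 loci was called different from controls. This comparison was not itself used to choose them. Its control and post-caring libraries all entered the choice through F, and the controls also through the caring changes that were limited. The calls are therefore not independent of the choice. All 50 loci were among the 9648 that passed the filter on low counts. At an adjusted p under 0.05, by edgeR's quasi-likelihood F test with p-values corrected over the 9648 loci by Benjamini and Hochberg, 0 of the 50 were called in post-caring against control beetles in each of the 4 combinations of parenting type and sex. The background was 0.0207% of loci in uniparental females, 0% in uniparental males, 0% in biparental females and 0.0104% in biparental males. With both parenting types averaged, 0 of 50 were called in females (background 0.135%) and 0 of 50 in males (background 0.943%). How many of all loci were called in females depended strongly on biparental female post-caring replicate 1. Without it that group has a single library. The median log2 fold change of the 50 in biparental females was then −0.12, against −0.05 with all libraries.

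At an unadjusted p under 0.05 by the edgeR test, 2 of the 50 passed in uniparental females (7.39% of all loci, 2.61% of steady loci) and 3 in uniparental males (8.04% and 4.03%). In biparental females 1 passed (16.3% and 9.92%) and in biparental males 2 (11.7% and 7.44%). With both types averaged, 1 passed in females (15.3% and 8.19%) and 6 in males (17.5% and 11.5%). DESeq2 also called 0 of the 50 in each comparison. Of all loci it called 79 in uniparental females, 28 in uniparental males, 123 in biparental females and 29 in biparental males, and with both types averaged 159 in females and 204 in males. In uniparental females it gave an adjusted p to only 792 loci, 5 of the 50 among them. The median absolute log2 fold change of the 50 was 0.09 in uniparental females, 0.10 in uniparental males, and 0.14 in biparental females and in biparental males. Over the steady loci it was 0.09, 0.10, 0.14 and 0.12 in the same order, and over all loci tested 0.15, 0.17, 0.24 and 0.21.

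Locus_C909520 had the highest fitted post-caring change in both sexes. Its scaled count was 256 and 160 in uniparental and 192 and 215 in biparental post-caring females, against 115 and 252 in uniparental and 103 and 148 in biparental control females. In males it was 86.4 and 97.8 in uniparental and 59.1 and 139 in biparental post-caring beetles, against 56.6 and 81.7 in uniparental and 58.5 and 48.4 in biparental controls. Post-caring and control libraries did not overlap within uniparental males, biparental males or biparental females, but overlapped in uniparental females. The log2 fold change was 0.44 (SE 0.27, edgeR quasi-likelihood adjusted p = 0.445) in females and 0.66 (SE 0.30, edgeR quasi-likelihood adjusted p = 0.274) in males, and neither passed the threshold.

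The lowest fitted changes were −0.24 (SE 0.23, edgeR adjusted p = 0.632) in females at Locus_13786 and −0.29 (SE 0.13, edgeR adjusted p = 0.247) in males at Locus_46920. Locus_46920 had 290 and 263 scaled counts in uniparental and 378 and 319 in biparental post-caring males, against 396 and 299 in uniparental and 438 and 399 in biparental control males. Within each parenting type its post-caring males were below its control males. In females it ran from 355 to 363 in uniparental and from 530 to 575 in biparental post-caring beetles, against 364 to 498 and 567 to 680 in the controls. In no comparison of post-caring with control beetles was the lowest adjusted p of the 50 loci below 0.157, by the edgeR quasi-likelihood test.

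**Figure D4:**
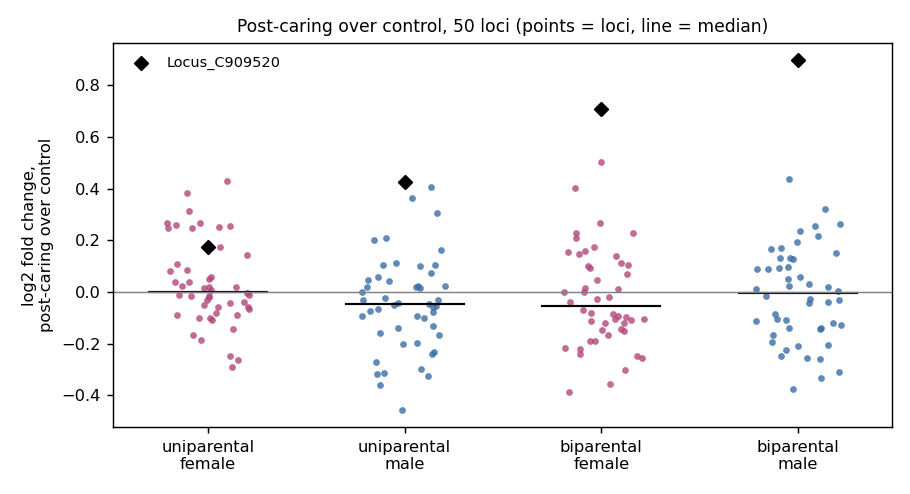
Fitted log2 fold change of post-caring over control beetles (vertical axis) of the 50 loci in the 4 combinations of parenting type and sex; circles are loci, diamonds Locus_C909520 and lines the medians, which lie between −0.05 and 0.00. Locus_C909520 is the highest point in uniparental males and in biparental beetles of both sexes, and no locus passed the adjusted threshold in any of the 4.

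Parenting types differed at most of the 50 loci in both sexes. Uniparental females differed from biparental females, with the 3 stages averaged, at 34 of the 50 loci by the same test, 21 higher and 13 lower, and uniparental males differed from biparental males at 33, 23 higher and 10 lower. The background was 60.7% of all loci in females (30.9% higher, 29.8% lower) and 65.7% in males (34.3% higher, 31.4% lower), so that 68% and 66% of the 50 loci are near what held for all loci. In females 69.4% and in males 72.3% of the steady loci were called. The comparison includes the controls of each parenting type, which had met no larvae, and the uniparental libraries were deeper, with a median total of 20099486 against 15440456 expected counts. Parenting type and library production cannot be told apart here.

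The difference between parenting types had the same sign in both sexes at 45 of the 50 loci (90%), against 87.6% of all loci tested and 90.3% of the steady loci. Females and males share no libraries in these comparisons, and 30 loci were called in both, which is 88.2% of the female list and 90.9% of the male list. Over all loci tested 52.8% were called in both, which is 87.0% of the female list and 80.3% of the male list, and over the steady loci 61.1%, against 60% of the 50. All 30 had the same direction, 20 higher and 10 lower in uniparental beetles, as did 99.9% of all loci called in both, and 13 loci were called in neither sex. The fitted changes of the 50 loci correlated at r = 0.97 between the sexes, a description across loci, which are not independent replicates. At 36 of the 50 loci the uniparental group mean was on the same side of the biparental one at all 6 combinations of sex and stage, against 62.2% of the 8491 loci and 72.2% of the steady loci. At 18 loci the mean difference between parenting types exceeded the mean sex difference in size.

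Locus_C819820 had the largest increase in uniparental females and Locus_C915164 in uniparental males. Locus_C819820 had 81.8 to 126 scaled counts in uniparental females against 23.8 to 49.05 in biparental females, without overlap, and its log2 fold change was 1.41 (SE 0.21, edgeR adjusted p = 1.87e-05). In males it had 53.4 to 105 in uniparental against 15.0 to 37.0 in biparental libraries, and the log2 fold change was 1.30 (SE 0.22, edgeR adjusted p = 7.34e-05). Locus_C915164 had 76.6 to 94.9 in uniparental females against 26.0 to 50.1 in biparental females, with a log2 fold change of 1.19 (SE 0.18, edgeR adjusted p = 2.36e-05). In males it had 48.9 to 84.6 in uniparental against 19.1 to 34.5 in biparental libraries, with a log2 fold change of 1.48 (SE 0.20, edgeR adjusted p = 4.83e-06). Uniparental females and biparental males were therefore furthest apart at both loci, and the sexes overlapped when the parenting types were pooled.

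Locus_20299 and Locus_C903532 had the largest decreases in uniparental beetles of both sexes. At Locus_20299, whose values are given above, the log2 fold change was −0.87 (SE 0.14, edgeR adjusted p = 5.45e-05) in females and −1.10 (SE 0.16, edgeR adjusted p = 9.92e-06) in males. Locus_C903532 had 85.1 to 118 scaled counts in uniparental females against 113 to 214 in biparental females. In males it had 53.1 to 76.5 in uniparental against 76.4 to 136 in biparental libraries, so that the types overlapped slightly in both sexes. Its log2 fold change was −0.62 (SE 0.14, edgeR adjusted p = 0.00136) in females and −0.77 (SE 0.15, edgeR adjusted p = 0.000268) in males.

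Among the other loci described above, Locus_13903 was higher in uniparental beetles by 0.69 in females and 0.71 in males on the log2 scale (edgeR adjusted p = 8.73e-06 and 8.25e-06). Locus_C909520, Locus_28947 and Locus_C910420 were called in neither sex, with log2 fold changes between −0.10 and 0.39. Locus_6792 was called lower in uniparental females, at −0.57 (edgeR adjusted p = 0.00356), and had −0.04 in males (edgeR adjusted p = 0.839). The difference between these changes was not tested.

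**Figure D5:**
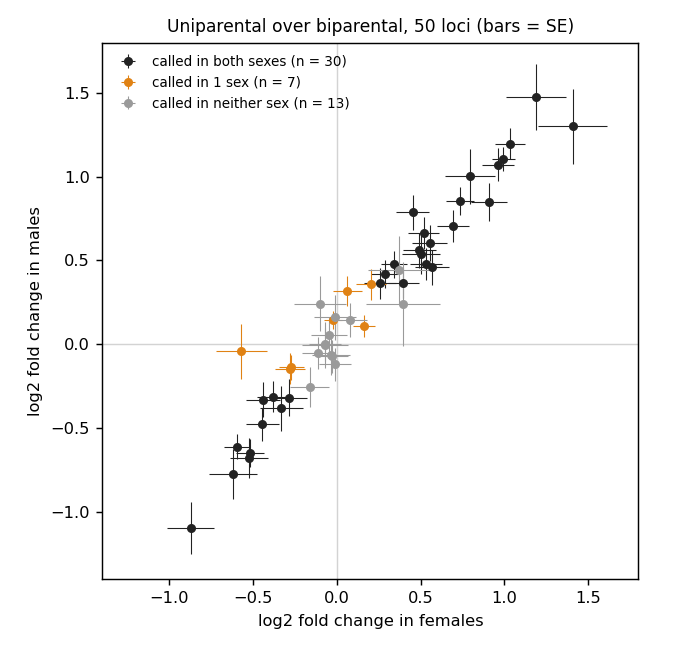
Fitted log2 fold change of uniparental over biparental beetles, 3 stages averaged, in females (horizontal axis) and males (vertical axis) for the 50 loci; points are loci, bars the SE, and colours mark loci called in both sexes (30), in 1 sex (7) or in neither (13). The 30 loci called in both sexes lie in the lower left (10) and the upper right (20).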

How the data were processed

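RNA of pooled heads was sequenced in 24 libraries, 2 for each of 12 groups, which were taken from the labels, as were replicate numbers. For 4 male control libraries the file names carry the other number. The authors trimmed reads with Trimmomatic 0.30, assembled them de novo, kept contigs that matched an arthropod, mapped with Bowtie2 and, with RSEM, estimated an expected count for each locus, which they deposited without normalization. The versions of the mapper and of RSEM are not given in the sources used here. Tables of 11403 loci were used, with no column of another series. The 2 libraries of a group differed beyond counting noise, so that none was counted as a copy.

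Scaled counts are expected counts over median-of-ratios size factors, with a pseudocount of 1 for N (Python 3.11.15). For tests, expected counts were rounded and fitted in edgeR 4.0.16 (R 4.3.3) with TMM factors, the function filterByExpr (minimum count 10), which left 9648 loci, and a mean for each of the 12 groups. Quasi-likelihood F tests were run for 8 comparisons that the choice of loci did not use as such. Their libraries did enter the choice, through the sex differences. The p-values were adjusted over all loci of a comparison by Benjamini and Hochberg's method and called at 0.05. Simulated data served to test the scripts. A standard error (SE) was taken as the absolute log2 fold change over the square root of F. DESeq2 1.42.0, the likelihood ratio test, RLE factors, no filter, a replicate block, other limits of the rule and left-out libraries were alternatives.

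The 50 loci, the marker lists (words in the descriptions of the study's table: fat body and yolk, muscle, antennal chemosensory, juvenile hormone) and the tests were chosen with earlier results of these data known. Loci are named by a fixed rule: the 6 with the highest smallest F, the last inside and the first outside, extremes of abundance, male share, range of F and post-caring change, up to 2 called rises and 2 called falls per comparison, and any with a description. Loci that share a match with these, and those with the fewest separated combinations, were named after their values were seen. No sequence of the loci was used here.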

Additional observations from a re-analysis of the deposited data

How the results depend on the processing

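Which loci the rule picks depends on its limits. With the caring limit at 0.2, 18 of the 50 loci were picked again, and with 0.4, 24. The libraries numbered 1 alone picked 18 and those numbered 2 alone 16, or, with the file numbers of the male controls, 14 and 12, and scaling by library totals picked 0 (these 5 were added after the data were seen). The number without overlap over all libraries was 1 under library totals, also added later, against 9, and on that scale the median F over the 8491 loci was itself between −0.16 and 0.42 in the 6 combinations. With a library left out the rule picked 24 to 48 of the loci, 9 to 13 were without overlap, and the median smallest F was 0.28 to 0.35. TMM scaling kept 46, a pseudocount of 5 kept 49 and ranking by the mean difference kept 35.

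Calls were steadier. Between parenting types, 29 to 34 loci were called in females and 30 to 35 in males over 7 alternative fits, and 30 to 36 and 31 to 34 with a library left out. Replicate numbers were not taken to pair the libraries. With title numbers, correlations of deviations between groups of a parenting type were over 0.1 in 6 of 15 uniparental and 9 of 15 biparental pairs, and the 5 under −0.1 all involved biparental male controls. With file numbers they were over 0.1 in 3 uniparental and 14 biparental pairs and under −0.1 in 3 and 0, so that pairing within biparental groups remains uncertain. A replicate block by title numbers gave 29 calls in females and 32 in males, by file numbers (added later) 30 and 30, and 0 in the post-caring comparisons by either. Post-caring calls stayed at 0 in all alternatives, but 2 libraries per group limit what these comparisons can detect. No named fold change reversed.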
